A study of Vitis vinifera with 15 samples.

Results

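The genes described here are 10 rows of a leaf expression matrix of 29970 grapevine genes, Vv16s0013g00900, Vv16s0013g00950, Vv16s0013g00970, Vv16s0013g00980, Vv16s0013g00990, Vv16s0013g01000, Vv16s0013g01050, Vv16s0013g01060, Vv16s0013g01070 and Vv16s0013g01110, listed as a tandem cluster of ethylene response factor (ERF) genes on chromosome 16. They were taken by identifier, from a list drawn up with earlier results of these data known, and all 10 were in the matrix. All 10 were among the 21364 genes tested, which averaged at least 0.1 FPKM. FPKM stands for read fragments per kilobase of transcript relative to mapped fragments, here with a further scaling between libraries by the authors. In the study's table of annotated genes only 2 of them, Vv16s0013g00900 and Vv16s0013g01070, had an entry, both as the ethylene-responsive transcription factor ERF105. The membership of the other 8 in the ERF family rests on the list itself, and no function is given to them singly.

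The matrix came from leaves of 1 clone of the cultivar “Gaglioppo” (Vitis vinifera), grafted onto 41 B (V. vinifera × V. berlandieri), Kober 5BB (V. riparia × V. berlandieri), 3309C (Couderc, V. riparia × V. rupestris), 17-37 Mgt or 1103P (Paulsen, like 17-37 Mgt a cross of V. rupestris × V. berlandieri). The graft combinations are named GAG-41B, GAG-KOB, GAG-3309C, GAG-17-37 and GAG-1103P after the rootstocks, and GAG-1103P, a rootstock widely used in Mediterranean vineyards, was the reference of the study. All vines stood in 1 vineyard under the same conventional management, and the scion was the same in all groups, so that the question put to the cluster is whether its leaf transcripts differed with the rootstock. Each combination had 3 libraries (replicates A, B and C), each made from 3 plants with 2 leaves taken per plant. The combinations were planted in adjacent blocks, and the effect of a block and of a rootstock cannot be told apart.

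ERF proteins are plant transcription factors with a single AP2/ERF DNA-binding domain. When ethylene, a gaseous hormone made from ACC by ACC synthase and ACC oxidase, binds its receptors, a signalling chain switches on ERF genes, whose products bind promoters of defence and stress genes. Several ERF genes also respond to jasmonate, wounding, pathogens or cold with little need for ethylene, and in Arabidopsis ERF105 is known as a rapidly induced stress-response gene. ERF genes often lie side by side in a genome as copies of each other, and reads of near-identical copies can be exchanged between them by an aligner, so that differences among single members are less certain than the level of the group.

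Some properties of the libraries touch the values below. In units of 1000000, the FPKM values summed to between 2.21 and 2.22 in the 3 GAG-41B libraries and to between 1.56 and 1.80 in the 12 others, and scaling every library to 1 total moved the all-gene median of the log2 fold change between GAG-41B and GAG-1103P by -0.38. The 4 leaf markers (PSAF, PsbO, photosystem I subunit VII and photosystem II D2) were above 0 in every library. Their summed level was 2600 to 2916 FPKM in GAG-41B, 1740 to 1934 in GAG-KOB, 1352 to 1493 in GAG-3309C, 1887 to 2133 in GAG-17-37 and 2249 to 2414 in GAG-1103P. The markers did not move together. The mean of PsbO was 1565 FPKM in GAG-41B, against 1681 in GAG-1103P. Those of PSAF (972 against 573), photosystem I subunit VII (141 against 58.6) and photosystem II D2 (71.2 against 37.6) were higher in GAG-41B. The part of these differences in the cluster results was not tested. Low values of replicates B and C fell on steps of whole reads while those of replicate A did not (8.41% to 13.1% of low genes shared the commonest ratio in 9 B and C libraries, against 0.0612% to 0.103% in the 5 A libraries). The origin of this difference between letters is not given in the sources used here, and the main results are also given by letter.

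In GAG-41B leaves, 9 of the 10 genes were lower than in GAG-1103P leaves and 1, Vv16s0013g01110, was higher (limma on log2(FPKM + 0.1), adjusted p of 0.05 or less, with the adjustment made over all genes tested). Over all genes tested, 34.4% were lower and 34.4% higher in this comparison. The median log2 fold change of the 10 genes was -1.66, against 0.00 over all genes. In every library of GAG-41B the 9 lower genes were below every library of GAG-1103P, an arrangement found in 35.9% of all genes tested. In bulk leaves, fewer cells of a type and less RNA per cell cannot be told apart.

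The difference was not confined to GAG-41B. In GAG-17-37, 8 of the 10 genes were lower than in GAG-1103P (15.6% of all genes tested were lower), with a median log2 fold change of -1.56. In GAG-3309C, 7 genes were lower (21.1% of all genes), with a median of -0.94, and in GAG-KOB the same 7 genes were lower (25.7% of all genes), with a median of -0.68. These 7 genes, Vv16s0013g00950, Vv16s0013g00970, Vv16s0013g00980, Vv16s0013g00990, Vv16s0013g01000, Vv16s0013g01050 and Vv16s0013g01070, were lower in all 4 comparisons, as were 8.72% of all genes tested. For the same 7, each of the 3 GAG-1103P libraries was above each of the 12 other libraries, an arrangement found in 12.2% of all genes. The 4 comparisons share the 3 GAG-1103P libraries and are not independent of each other. All 10 genes differed among the 5 combinations by the moderated F test of limma, as did 75.3% of all genes.

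**Figure D1:**
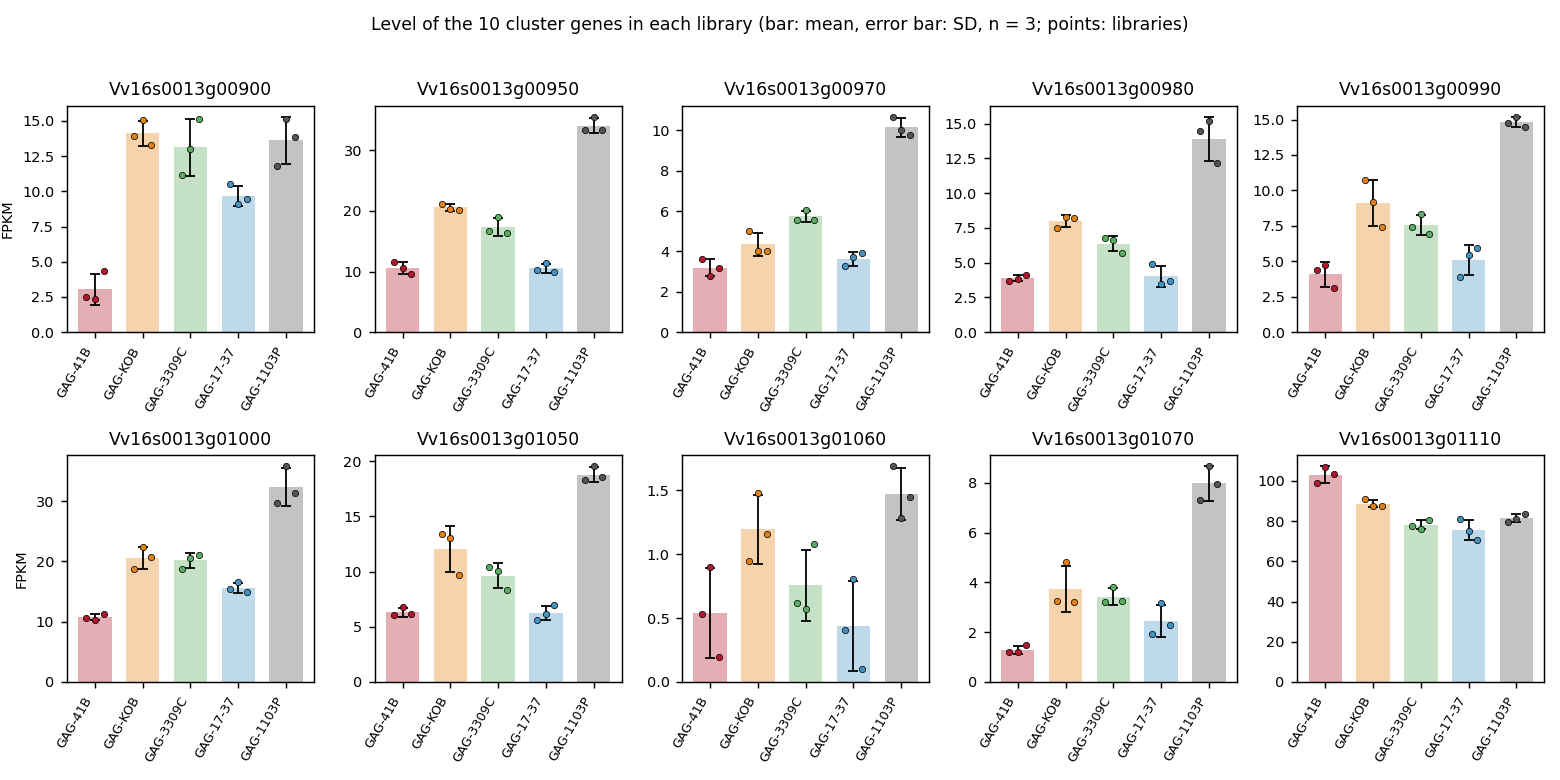
FPKM (vertical axes, each from 0) of the 10 cluster genes in the 5 graft combinations (horizontal axes), with bars for the mean, error bars for the SD of 3 libraries and points for the single libraries, A, B and C from left to right. In 7 genes the 3 GAG-1103P points lie above all 12 others, while Vv16s0013g00900 is low in the 3 GAG-41B points, below all 12 others, and Vv16s0013g01110 stays between 70.6 and 107 FPKM in all libraries.

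Of the genes annotated as ERF105, Vv16s0013g01070 had the largest decrease of the cluster in GAG-41B. Its level in replicates A, B and C was 1.19, 1.21 and 1.48 FPKM in GAG-41B, 3.24, 4.82 and 3.20 FPKM in GAG-KOB, 3.21, 3.82 and 3.26 FPKM in GAG-3309C and 1.91, 3.16 and 2.31 FPKM in GAG-17-37, against 7.30, 8.67 and 7.97 FPKM in GAG-1103P. The GAG-41B libraries were all below the 12 others and the GAG-1103P libraries all above, without overlap. The log2 fold change of GAG-41B vs. GAG-1103P was -2.54 ± 0.19 (SE, limma, adjusted p = 7.27e-08), a mean of 16.2% of the GAG-1103P mean. The gene was also lower in GAG-17-37 (30.8% of the GAG-1103P mean), GAG-3309C (43.0%) and GAG-KOB (47.0%). Within the combinations other than GAG-1103P, GAG-41B was below GAG-17-37, its nearest neighbour, by a log2 difference of -0.85 (limma, adjusted p = 0.00172), whereas GAG-KOB and GAG-3309C overlapped. The libraries of GAG-3309C lay above those of GAG-17-37 without overlap, with a log2 difference of 0.49 (interval 0.07 to 0.91) that did not pass the adjusted test (limma, adjusted p = 0.11).

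Vv16s0013g00900, the other member annotated as ERF105 and the first gene of the cluster by identifier, had another pattern. It had 2.51, 2.34 and 4.32 FPKM in GAG-41B, 13.9, 15.1 and 13.3 FPKM in GAG-KOB, 11.1, 13.0 and 15.1 FPKM in GAG-3309C and 10.5, 9.12 and 9.45 FPKM in GAG-17-37, against 11.8, 15.2 and 13.9 FPKM in GAG-1103P. The GAG-41B libraries were all far below the 12 others, the GAG-17-37 libraries were just below the rest, and those of GAG-KOB, GAG-3309C and GAG-1103P overlapped. The log2 fold change of GAG-41B vs. GAG-1103P was -2.16 ± 0.19 (SE, limma, adjusted p = 3.67e-07), or 22.5% of the GAG-1103P mean. With Vv16s0013g01070 it was 1 of 2 members that passed a 4-fold limit as well, as did 4.79% of all genes tested in this direction. The intervals of its log2 difference from GAG-1103P were -0.36 to 0.47 in GAG-KOB (limma, adjusted p = 0.832), -0.47 to 0.36 in GAG-3309C (limma, adjusted p = 0.849) and -0.90 to -0.06 in GAG-17-37 (limma, adjusted p = 0.0719). In GAG-17-37 the gene was called lower when GAG-41B replicate C, the highest of its group, was left out of the fit (limma, adjusted p = 0.00928), when only the 6 libraries compared were fitted (limma, adjusted p = 0.0194) and with a pseudocount of 1 (limma, adjusted p = 0.0498).

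Another gene annotated as ERF105, Vv16s0013g01090, lies between Vv16s0013g01070 and Vv16s0013g01110 by identifier and was not among the 10. It had 4.51, 6.40 and 4.48 FPKM in GAG-41B, 16.3, 16.8 and 17.8 FPKM in GAG-KOB, 11.6, 14.9 and 13.2 FPKM in GAG-3309C and 7.08, 10.3 and 9.96 FPKM in GAG-17-37, against 24.7, 21.5 and 23.9 FPKM in GAG-1103P. The GAG-41B libraries were again all below the others and the GAG-1103P libraries all above. Its log2 fold changes vs. GAG-1103P were -2.18 in GAG-41B, -1.37 in GAG-17-37, -0.82 in GAG-3309C and -0.46 in GAG-KOB, all with an adjusted p of 0.05 or less by limma.

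The 2 most abundant of the 7 genes lower in all 4 comparisons were Vv16s0013g00950 and Vv16s0013g01000. Vv16s0013g00950 had 11.6, 10.6 and 9.66 FPKM in GAG-41B, 21.2, 20.4 and 20.2 FPKM in GAG-KOB, 16.6, 19.1 and 16.3 FPKM in GAG-3309C and 10.3, 11.4 and 9.93 FPKM in GAG-17-37, against 33.4, 35.6 and 33.3 FPKM in GAG-1103P. No library of the other combinations reached the GAG-1103P libraries, and those of GAG-41B and GAG-17-37 covered the same range. The log2 fold change vs. GAG-1103P was -1.68 ± 0.08 in GAG-41B (SE, limma, adjusted p = 7.52e-10) and -1.69 in GAG-17-37, and the log2 difference of GAG-41B minus GAG-17-37 had an interval of -0.17 to 0.18. GAG-3309C and GAG-KOB lay in between with log2 fold changes of -0.97 and -0.73, and each differed from its neighbours in the order.

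Vv16s0013g01000 had 10.6, 10.3 and 11.3 FPKM in GAG-41B, 18.7, 22.4 and 20.8 FPKM in GAG-KOB, 18.8, 20.6 and 21.1 FPKM in GAG-3309C and 15.4, 16.5 and 14.8 FPKM in GAG-17-37, against 29.7, 35.8 and 31.3 FPKM in GAG-1103P. Here the GAG-41B libraries were the lowest of all 15 and did not overlap with GAG-17-37, while GAG-KOB and GAG-3309C overlapped. The log2 fold change was -1.57 ± 0.09 in GAG-41B (SE, limma, adjusted p = 2.71e-09) and -1.04 in GAG-17-37, and GAG-41B was below GAG-17-37 by a log2 difference of -0.53 (limma, adjusted p = 0.000128).

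The 4 remaining genes of this kind, Vv16s0013g00970, Vv16s0013g00980, Vv16s0013g00990 and Vv16s0013g01050, had middle levels. Vv16s0013g00980 had 3.69, 3.84 and 4.14 FPKM in GAG-41B, 7.50, 8.29 and 8.19 FPKM in GAG-KOB, 6.77, 6.63 and 5.72 FPKM in GAG-3309C and 4.89, 3.46 and 3.71 FPKM in GAG-17-37, against 14.5, 15.2 and 12.1 FPKM in GAG-1103P. Vv16s0013g00990 had 4.36, 4.78 and 3.11 FPKM in GAG-41B, 10.7, 9.17 and 7.45 FPKM in GAG-KOB, 7.45, 8.32 and 6.93 FPKM in GAG-3309C and 3.91, 5.44 and 5.93 FPKM in GAG-17-37, against 14.8, 15.2 and 14.5 FPKM in GAG-1103P. In both genes GAG-41B and GAG-17-37 overlapped at the low end, and in the middle GAG-KOB overlapped with GAG-3309C for Vv16s0013g00990 and lay above it for Vv16s0013g00980. Vv16s0013g01050 had 6.05, 6.80 and 6.15 FPKM in GAG-41B, 13.4, 13.0 and 9.65 FPKM in GAG-KOB, 10.4, 10.1 and 8.32 FPKM in GAG-3309C and 5.64, 6.20 and 6.95 FPKM in GAG-17-37, against 18.3, 19.5 and 18.5 FPKM in GAG-1103P. Vv16s0013g00970 had 3.60, 2.78 and 3.20 FPKM in GAG-41B, 5.00, 4.02 and 4.03 FPKM in GAG-KOB, 5.57, 6.07 and 5.55 FPKM in GAG-3309C and 3.26, 3.74 and 3.93 FPKM in GAG-17-37, against 10.7, 10.01 and 9.74 FPKM in GAG-1103P. In both of these GAG-41B and GAG-17-37 again overlapped at the low end and GAG-1103P stood apart at the top. Vv16s0013g00970 differed from the other 3 in that GAG-KOB was below GAG-3309C without overlap, by a log2 difference of -0.40 (limma, adjusted p = 0.0186). The log2 fold changes of these 4 genes in GAG-41B vs. GAG-1103P were -1.64 for Vv16s0013g00970, -1.81 for Vv16s0013g00980, -1.86 for Vv16s0013g00990 and -1.56 for Vv16s0013g01050, and none of the 4 passed the test between GAG-41B and GAG-17-37.

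Vv16s0013g01060 was the least expressed member. It had 0.528, 0.8998 and 0.195 FPKM in GAG-41B, 0.943, 1.48 and 1.16 FPKM in GAG-KOB, 0.617, 0.571 and 1.08 FPKM in GAG-3309C and 0.409, 0.802 and 0.0993 FPKM in GAG-17-37, against 1.69, 1.29 and 1.45 FPKM in GAG-1103P. The GAG-41B, GAG-3309C and GAG-17-37 libraries were below the GAG-1103P libraries but overlapped with each other, and GAG-KOB overlapped with GAG-1103P. These values stand for few reads, with 9 and 2 in GAG-41B replicates B and C and 11 and 1 in GAG-17-37, against 19 and 20 in GAG-1103P, and the single read of GAG-17-37 replicate C has a 95% Poisson interval of 0.0253 to 5.57 reads. The log2 fold change was -1.46 ± 0.52 in GAG-41B (SE, limma, adjusted p = 0.0236) and -1.80 ± 0.52 in GAG-17-37 (SE, limma, adjusted p = 0.0169). The call in GAG-41B was lost without GAG-41B replicate C (limma, adjusted p = 0.112), GAG-1103P replicate A (0.0648) or GAG-1103P replicate C (0.0504), and that in GAG-17-37 without GAG-17-37 replicate C (limma, adjusted p = 0.0699) or GAG-1103P replicate A (0.0519). In GAG-KOB and GAG-3309C the intervals of the log2 difference, -1.42 to 0.83 and -2.04 to 0.20, held 0, and the one in GAG-3309C passed when only the 6 libraries compared were fitted (limma, adjusted p = 0.0378).

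Vv16s0013g01110, the last gene by identifier, was the most abundant member per length and did not follow the others. It had 98.8, 107 and 104 FPKM in GAG-41B, 90.8, 87.5 and 87.6 FPKM in GAG-KOB, 77.8, 76.0 and 80.6 FPKM in GAG-3309C and 80.9, 75.1 and 70.6 FPKM in GAG-17-37, against 79.6, 81.2 and 83.4 FPKM in GAG-1103P. The GAG-41B libraries were above all others. The log2 fold change of 0.34 ± 0.05 in GAG-41B vs. GAG-1103P (SE, limma, adjusted p = 5.93e-05) became 0.0514 with quantile normalization (limma, adjusted p = 0.402) and turned to -0.0602 when the libraries were scaled to the same total (limma, adjusted p = 0.397), so that its direction depends on the scaling. The other 9 genes stayed lower in GAG-41B under the same total, the same median and quantile normalization. In these settings 49.3%, 31.5% and 39.1% of all genes tested were lower. The log2 differences of Vv16s0013g01110 from GAG-1103P were 0.12 in GAG-KOB, -0.06 in GAG-3309C and -0.11 in GAG-17-37, none of which passed the test. The one in GAG-KOB passed with the same median in every library, at a log2 fold change of 0.17 (limma, adjusted p = 0.0196), with only the 6 libraries compared (0.04995) and without GAG-17-37 replicate A (0.0351) or replicate C (0.0427), and the one in GAG-17-37 passed without GAG-17-37 replicate A, with a log2 fold change of -0.16 (limma, adjusted p = 0.0311).

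**Figure D2:**
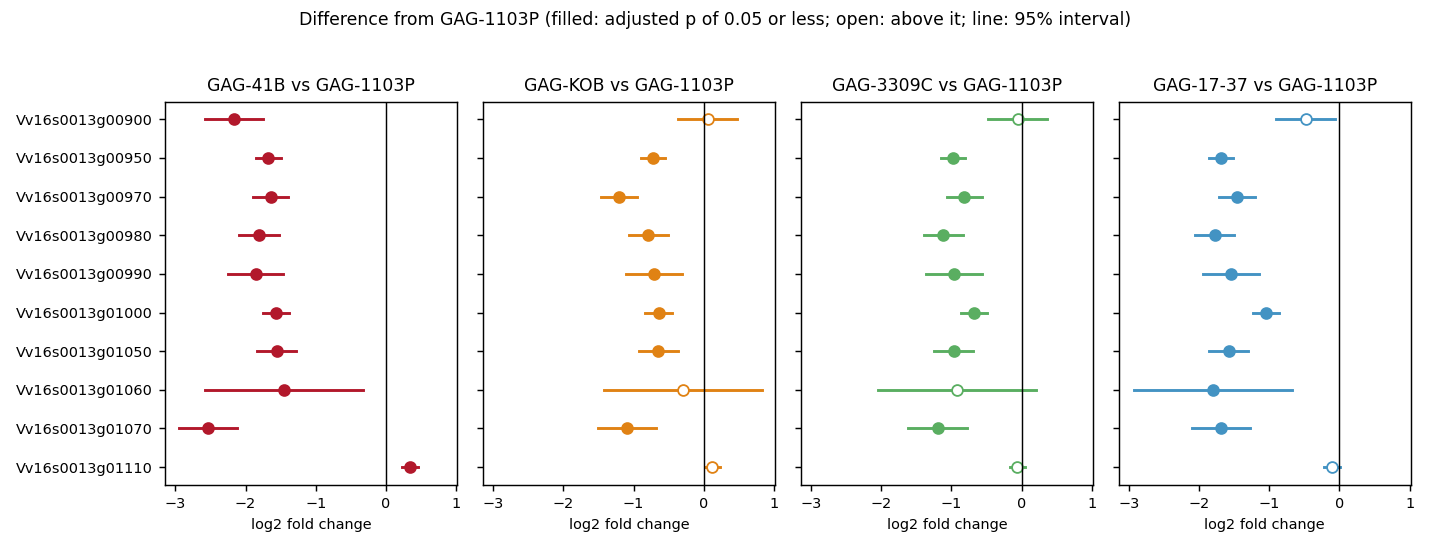
Log2 fold change (horizontal axes) of each cluster gene (rows) in GAG-41B, GAG-KOB, GAG-3309C and GAG-17-37, each vs. GAG-1103P, with its 95% interval from limma as a line and a filled point where the adjusted p was 0.05 or less. In GAG-41B the 9 genes called lower lie between -2.54 and -1.46, and Vv16s0013g01060, at few reads, has the widest intervals.

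The order of the 5 combinations was similar in most members. GAG-1103P had the highest mean in 8 genes, and the lowest mean was that of GAG-41B in 6 genes and that of GAG-17-37 in 4. Over the 10 genes, 18 of 40 neighbouring pairs in the order differed by limma. No share over all genes was calculated for these means and pairs, so that they only describe the members. In the 8 genes other than Vv16s0013g00900 and Vv16s0013g01110, a group set apart after their values were seen and described without a test, the mean level was 16.2% to 36.7% of the GAG-1103P mean in GAG-41B (median 31.3%), 42.8% to 81.0% in GAG-KOB (median 60.9%), 43.0% to 62.5% in GAG-3309C (median 51.1%) and 28.9% to 48.3% in GAG-17-37 (median 32.1%).

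GAG-41B and GAG-17-37 stood next to each other at the low end for most genes. In their direct comparison, 3 genes were lower in GAG-41B, namely Vv16s0013g00900, Vv16s0013g01000 and Vv16s0013g01070 (31.3% of all genes tested were lower), 1 was higher, Vv16s0013g01110 (31.1% were higher), and 6 did not pass the test. For Vv16s0013g00950, Vv16s0013g00980 and Vv16s0013g01050 the interval of the log2 difference lay within -0.31 and 0.30. This count depended on the scaling and on the letter. When all libraries were scaled to 1 total, 8 genes were lower in GAG-41B than in GAG-17-37 and 0 higher, in a setting where 52.4% of all genes were lower and 16.9% higher. With replicates B and C only, 5 were lower (32.0% of all genes).

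GAG-KOB and GAG-3309C stood together above these. GAG-41B was lower than GAG-KOB in 8 genes (25.6% of all genes tested) and lower than GAG-3309C in 8 (31.4%), the members other than Vv16s0013g01060 and Vv16s0013g01110 in both cases. Vv16s0013g01110 was higher in GAG-41B than in GAG-KOB (27.6% of all genes were) and GAG-3309C (31.7%), and in neither with the same total or quantile normalization. GAG-KOB was higher than GAG-17-37 in 9 genes (17.4%), all but Vv16s0013g00970, a count that was 6 with the same total in every library (11.3% of all genes) and 5 with replicates B and C only (19.9%). GAG-3309C was higher than GAG-17-37 in 6 genes (7.37%), in 4 with replicates B and C only (10.6%) and in 7 with the replicate block (12.7%). Between GAG-KOB and GAG-3309C, 1 gene was lower in GAG-KOB (16.2%) and 2 were higher (18.7%), and the number higher was 0 with the same total in every library (12.7% of all genes), 4 with the same median (20.7%) and 3 with quantile normalization (17.4%).

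Set against the mean of the other 4 combinations, which does not rest on the GAG-1103P libraries alone, GAG-41B was lower in 8 genes (33.8% of all genes tested) and higher in Vv16s0013g01110 (34.2%). The log2 difference was -2.04 for Vv16s0013g00900 and -1.55 for Vv16s0013g01070, and it lay between -1.05 and -0.76 in the other 6 genes called lower. Vv16s0013g01060 did not pass (interval -1.59 to 0.18). Vv16s0013g01110 was not higher in this comparison either when the libraries were scaled to the same total or by quantiles.

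Each fold change vs. GAG-1103P that passed in the fit of all 15 libraries kept its direction with replicates B and C only and in replicate A alone. With replicates B and C only, 8 genes were lower in GAG-41B than in GAG-1103P (35% of all genes tested) and 7 in GAG-KOB (26.7%). In GAG-3309C 7 were lower (21.6%) and in GAG-17-37 8 (17.5%), the last with Vv16s0013g01110 in place of Vv16s0013g01060. This call of Vv16s0013g01110, at a log2 fold change of -0.18, was not shared by replicate A, where the value was 0.0247. In replicate A alone, which allows no test, the log2 fold changes in GAG-41B were -2.52 for Vv16s0013g01070, -2.19 for Vv16s0013g00900, -1.52 for Vv16s0013g00950, -1.48 for Vv16s0013g01000 and 0.31 for Vv16s0013g01110.

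For replicates B and C, the smallest read numbers that fit the deposited values could be recovered for all 10 genes. Vv16s0013g00900 had 18 and 34 reads in GAG-41B, against 172 and 147 in GAG-1103P. Vv16s0013g01070 had 12 and 15 reads in GAG-41B, against 127 and 109 in GAG-1103P. A read of GAG-41B counted for more, since its worth in FPKM was 1.48 and 1.44 times that of a read of GAG-1103P replicate B, and 1.47 times in GAG-17-37 replicate C. In the other members except Vv16s0013g01060, the GAG-41B libraries held at least 32 reads. The 95% Poisson interval of Vv16s0013g00900 in replicate C ended at 47.5 reads in GAG-41B and began at 124 reads in GAG-1103P, and that of Vv16s0013g01070 ended at 24.7 reads in GAG-41B and began at 89.5 reads in GAG-1103P. Such intervals cover counting error only. By the size of 1 read, Vv16s0013g00950, Vv16s0013g01050 and Vv16s0013g01060 had the same effective length, as had Vv16s0013g00980 and Vv16s0013g01070 within the precision of the values, while that of Vv16s0013g00900 was 0.768 and that of Vv16s0013g01110 0.826 times that of Vv16s0013g01060.

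The members other than Vv16s0013g00900 and Vv16s0013g01110 followed each other over the libraries. As a description over 15 libraries, which share their combinations, the Pearson correlation of log2(FPKM + 0.1) between 2 of these 8 genes had a median of 0.898 over 28 pairs (range 0.55 to 0.98). After the mean of each combination was taken off, the median was 0.113 (range -0.50 to 0.72), so that the shared pattern lay between combinations and hardly between libraries of a combination. With the mean standardised profile of the 10 genes, the correlation was 0.69 for Vv16s0013g00900, -0.27 for Vv16s0013g01110 and at least 0.78 for the other 8, and it was 0.93 for Vv16s0013g01090.

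Outside the cluster, the genes whose pattern was most like this profile, of 17840 that averaged at least 1 FPKM, were Vv09s0002g02940, annotated as myo-inositol oxygenase 1 (r = 0.97), Vv12s0028g03560, annotated as an unknown protein (r = 0.96), and Vv14s0108g00870, not annotated in the sources used here (r = 0.94), over the 15 libraries. Vv09s0002g02940 averaged 2.30 FPKM in GAG-41B, 13.9 FPKM in GAG-KOB, 8.72 FPKM in GAG-3309C and 4.12 FPKM in GAG-17-37, against 33.4 FPKM in GAG-1103P.

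The stretch of identifiers that holds the cluster has 19 rows, of which 9 were not members. Of these 9, 6 were listed at 0 in all 15 libraries, and Vv16s0013g00930, Vv16s0013g00940 and Vv16s0013g01090 were tested. Of the tested genes next to the stretch, 6 on either side, 3 were lower and 6 higher in GAG-41B than they were in GAG-1103P, with a median log2 fold change of 0.33. Among all 74 other tested genes with identifiers of the same group (Vv16s0013g), 23 were lower and 30 higher in GAG-41B, 21 lower and 17 higher in GAG-KOB, 20 lower and 8 higher in GAG-3309C and 15 lower and 7 higher in GAG-17-37. The median log2 fold changes of these 74 genes were 0.13 in GAG-41B, -0.04 in GAG-KOB, -0.12 in GAG-3309C and -0.03 in GAG-17-37. Vv16s0013g01120, the gene after the cluster, was 1 of the 3 lower flanking ones in GAG-41B and is named here after its values were seen. It had 183, 139 and 148 FPKM in GAG-41B, against 583, 447 and 449 FPKM in GAG-1103P. Its log2 fold changes vs. GAG-1103P were -1.65 in GAG-41B, -0.55 in GAG-KOB and -0.59 in GAG-3309C, all called lower. In GAG-17-37 the value was -0.37 and did not pass (limma, adjusted p = 0.0566).

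**Figure D3:**
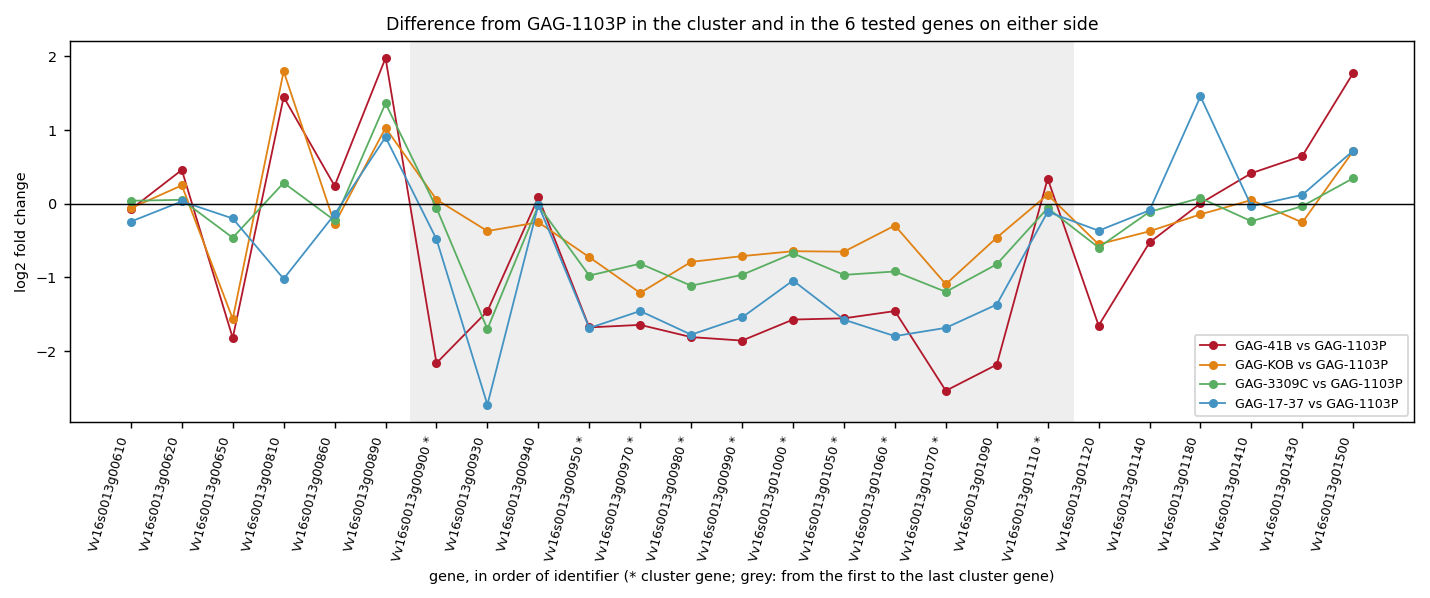
Log2 fold change vs. GAG-1103P (vertical axis) of the tested genes from Vv16s0013g00610 to Vv16s0013g01500 in order of identifier (horizontal axis, not to genomic scale), with 1 line for each of GAG-41B, GAG-KOB, GAG-3309C and GAG-17-37. From Vv16s0013g00950 to Vv16s0013g01090 all 4 lines lie below 0, whereas the 6 tested genes on either side, with a median of 0.33 in GAG-41B, lie on both sides of it. Some of these flanking genes, such as Vv16s0013g01120, are below 0 in all 4 lines as well.

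The other genes of the pathway were taken from the ethylene signalling and AP2/EREBP networks in the study's table of annotated genes, 44 genes of which 3 are the ERF105 genes above. The study chose that table for large changes in these same libraries, so that the numbers are not independent evidence of a direction. Of the 41 genes outside the stretch, 28 were higher and 12 lower in GAG-41B relative to GAG-1103P, with a median log2 fold change of 2.40, and 1 did not pass. The corresponding numbers were 25 higher and 10 lower in GAG-KOB (median 0.78), 15 higher and 7 lower in GAG-3309C (median 0.27) and 17 higher and 8 lower in GAG-17-37 (median 0.28). Scaled to the same total, 28 were higher and 13 lower in GAG-41B. Of the 26 listed AP2/EREBP transcription factors, the family to which ERF genes belong, 21 were higher and 4 lower in GAG-41B.

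The largest increase in GAG-41B among these was that of Vv07s0005g03220, annotated as ERF098, which averaged 914 ± 150 FPKM in GAG-41B, 91.2 ± 18.7 FPKM in GAG-KOB, 35.5 ± 8.99 FPKM in GAG-3309C and 33.9 ± 5.12 FPKM in GAG-17-37, against 10.1 ± 2.04 FPKM in GAG-1103P (SD, n = 3 each). It was highest in GAG-41B, with a log2 fold change of 6.49 vs. GAG-1103P (limma, adjusted p = 2.78e-11). In GAG-17-37 it was not above its level in GAG-3309C or GAG-KOB. A relation between this gene and the cluster genes was not tested. The largest decrease was that of Vv07s0005g00870, annotated as erg-1, with 18.7 ± 2.01 FPKM in GAG-41B, against 186 ± 9.37 FPKM in GAG-1103P (SD, n = 3 each), a log2 fold change of -3.31.

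The genes listed under the enzyme classes of ACC synthase and ACC oxidase changed in both directions. The ACC oxidase gene Vv12s0059g01380, whose enzyme makes ethylene from ACC, averaged 5415 ± 148 FPKM in GAG-41B, 1097 ± 61.7 FPKM in GAG-KOB, 303 ± 29.0 FPKM in GAG-3309C and 297 ± 15.6 FPKM in GAG-17-37, against 158 ± 8.56 FPKM in GAG-1103P (SD, n = 3 each). It was higher in all 4 combinations, with a log2 fold change of 5.10 in GAG-41B (limma, adjusted p = 8.31e-15). Vv11s0016g02380 (ACC oxidase 2) and Vv12s0028g02420 (ACC oxidase homolog 1) were lower in GAG-41B, with log2 fold changes of -2.16 and -2.24, and Vv11s0016g02380 was higher in GAG-3309C (log2 fold change of 1.31, limma, adjusted p = 9.42e-05). In all, 2 of the 4 listed genes of this enzyme class were higher and 2 lower in GAG-41B, the other higher one being annotated as a flavonol synthase. Of the 4 listed ACC synthase genes, whose enzymes make ACC, Vv02s0025g00360 and Vv15s0046g02220 were higher in GAG-41B (log2 fold changes of 4.25 and 3.82). Their means were low in GAG-1103P, at 0.438 and 0.248 FPKM, against 10.2 and 4.16 FPKM in GAG-41B. Vv00s1764g00010 and Vv02s0025g04980 were lower in GAG-41B (both -2.25), the latter listed by enzyme class without an annotation. Vv00s1764g00010 averaged 18.2 FPKM in GAG-41B, against 86.9 FPKM in GAG-1103P, and was the most abundant ACC synthase gene of the list in GAG-1103P. Ethylene itself was not measured in these data.

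**Figure D4:**
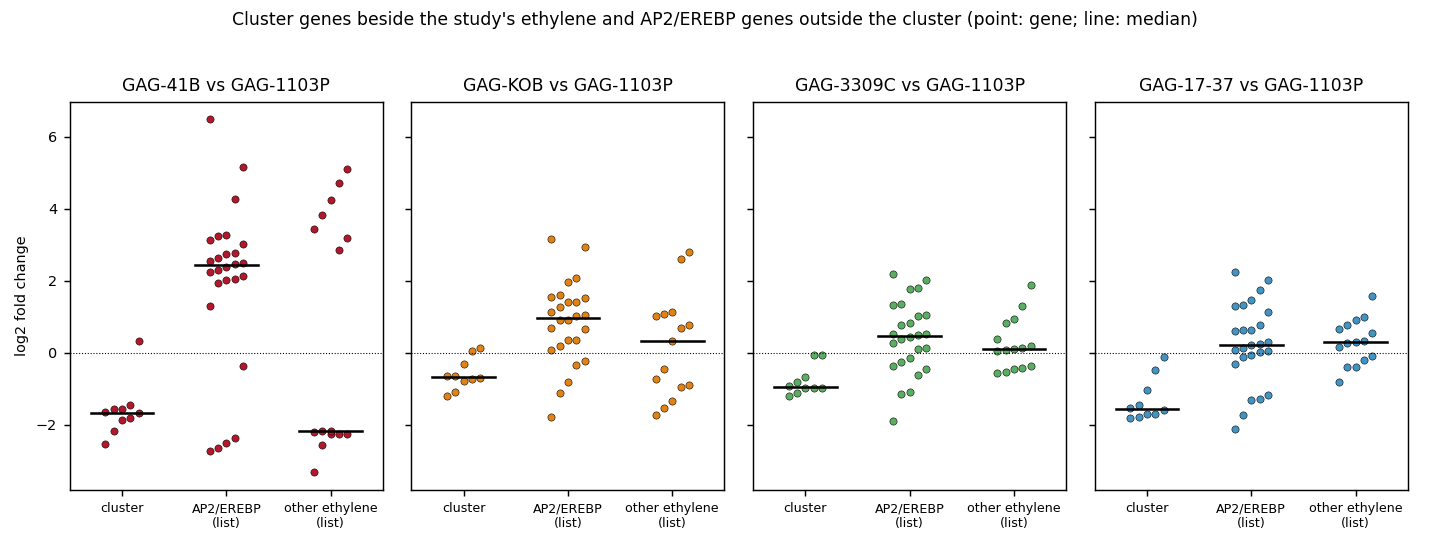
Log2 fold change vs. GAG-1103P (vertical axis) of the 10 cluster genes, the 26 listed AP2/EREBP genes outside the cluster and the 15 other listed ethylene genes, with 1 point for each gene and a line at the median, in GAG-41B, GAG-KOB, GAG-3309C and GAG-17-37 from left to right. In GAG-41B the cluster median is -1.66 and that of the AP2/EREBP genes 2.43 among listed genes that the study had chosen for large changes.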

How the data were processed

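Leaf RNA of 5 graft combinations with 3 libraries each was sequenced as single-end reads. According to the methods and the labels, the authors removed adapters and low-quality bases, aligned the reads to the PN40024 genome (12X, annotation v16) with TopHat2 2.0.14 and Bowtie2 2.2.4, and calculated the deposited FPKM values with Cufflinks 2.2.0, scaled between libraries by a geometric method. How reads of near-identical copies were divided is not given in the sources used here. The deposited FPKM values were matched to libraries by column name (15 columns, 0 left out). They are not counts, so that DESeq, named in the methods, was not run.

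Values were analyzed as log2(FPKM + 0.1), so that fold changes of low genes are understated, with limma 3.58.1 in R 4.3.3. The 5 combination means were estimated in 1 model, with a trend of the variance, for the 21364 genes that averaged 0.1 FPKM or more. Tests were two-sided, adjusted by Benjamini and Hochberg over all genes tested in each comparison, and called at an adjusted p of 0.05 or less (4-fold with a log2 fold change of at least 2 as well). With 3 libraries against 3 an exact permutation test of 1 gene cannot go below 0.1. Summaries and plots used Python 3.11.15, pandas 2.3.3 and matplotlib 3.10.9. The fit was tested on simulated data.

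The total read number of a library is not kept in FPKM. Read numbers of replicates B and C are the smallest that fit each gene's values in 10 libraries (largest distance from a whole number 0.00405, tolerance 0.03), and those of replicate A were not recovered. The replicates are separate pools of leaves, and p-values measure the spread between pools. The letters were not fitted as pairs in the main model. By the correlation of deviations, 5 of 15 libraries were closest to a library of their own letter. A replicate block raised the number of genes called in GAG-17-37 vs. GAG-1103P from 7323 to 9511.

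The members and gene lists were chosen with earlier results of these data known. Named genes are the 10 members, Vv16s0013g01090, the 3 most similar patterns, and from the ethylene list the ACC synthase and ACC oxidase genes and the genes with the largest increase and decrease in GAG-41B. Of the identifiers, 0 matched the RefSeq gene table of assembly ASM3070453v1, so that no coordinates or sequences are given. Alternatives covered the pseudocount (1 and 0.01), the filter, 3 scalings, the variance trend, a replicate block, the libraries fitted and each library left out.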

Additional observations from a re-analysis of the deposited data

How the results depend on the processing

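In 154 recalculations, the members called numbered 9 to 10 in GAG-41B, 7 to 8 in GAG-KOB, 7 to 8 in GAG-3309C and 7 to 9 in GAG-17-37 vs. GAG-1103P, 8 to 10 in GAG-41B vs. the mean of the other 4 combinations and 9 to 10 by the F test. Of all 21364 genes, the main fit called 14703, 11242, 9205 and 7323 in the 4 comparisons with GAG-1103P. It called 14532 in GAG-41B vs. the mean of the other 4, and 75.3% of all genes by the F test. By deviations over all genes, 5 of 15 libraries were closest to a library of their own letter, with same-letter correlations from -0.05 to 0.14. This check does not exclude letter differences in single genes. In all 5 combinations, Vv07s0005g03220 and Vv12s0059g01380 were lowest in replicate A, and Vv02s0025g04980 was highest there. With the replicate block, 10, 7, 7 and 8 members were called in the 4 comparisons with GAG-1103P, as without it. In GAG-3309C vs. GAG-17-37 it called 7 in place of 6. Over all genes the number called in GAG-17-37 vs. GAG-1103P was 9511, against 7323 without it. Of 1036 fold changes recalculated with a test, 1010 kept their direction and side of the threshold, 10 passed newly, 8 no longer passed and 8 changed sign. Of 40 in replicate A alone, without a test, 17 moved by more than the spread, with 1 change of sign (Vv16s0013g01110 in GAG-17-37, 0.0247). With the same total in every library, log2 fold changes turned to -0.0156 (Vv16s0013g00900, GAG-KOB), 0.0228 (Vv16s0013g00900, GAG-3309C), -0.0602 (Vv16s0013g01110, GAG-41B) and 0.0213 (Vv16s0013g01110, GAG-3309C). With replicates B and C only, an alternative chosen after seeing the data, Vv16s0013g00900 turned to -0.0348 in GAG-KOB. With 1 library left out, Vv16s0013g00900 ranged from -0.0416 to 0.138 in GAG-KOB and from -0.166 to 0.0534 in GAG-3309C. Of the fold changes that changed sign, only Vv16s0013g01110 in GAG-41B had passed the test. The cause of these changes was not tested, and the pairs without GAG-1103P were not refitted with a library left out. Few reads limit Vv16s0013g01060.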
